A study of Mus musculus with 21 samples.

Results

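Between 18 and 26 Mb of mouse chromosome 12 (build mm9) lies a stretch in which regions of changed DNA methylation capture were unusually dense in synovial fibroblasts of 8-week-old arthritic mice. All regions that the authors' 4 deposited tables of differing regions place on chromosome 12 with a start from 18 to 26 Mb were taken, which gave 383 of 49307 listed regions. Of these, 254 of 11975 came from the table of Tg197 against wild type at 8 weeks, 43 of 13125 from that at 3 weeks, 22 of 7309 from that at 11 weeks, and 64 of 16898 from the table of TNF-treated against untreated wild-type cells at 8 weeks. The stretch was picked because its 8-week list is dense and mostly gained, so the 8-week values below are a description with no test. The TNF table holds the same untreated wild-type libraries as the 8-week table and is described in the same way.

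The study covers 21 libraries in 7 groups of 3: wild type and Tg197 at 3, 8 and 11 weeks of age, and wild type at 8 weeks with TNF added. All are cultured synovial fibroblasts of a CBA x C57BL/6J background at passages 4 to 5. Tg197 mice carry a human TNF transgene and develop arthritis, and the ages stand for early, established and late disease in the study's design. The dose and duration of TNF and the number of animals behind a library are not given in the labels, so the spread between libraries may be technical. The 3 TNF-treated libraries hold only 2 distinct sets of values, since libraries 1 and 2 are identical at all 16898 regions, and they were counted as 1. Expression values were not analysed here, so the labelled cell type was not checked against its markers.

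Synovial fibroblasts line the joint and, in inflammatory arthritis, help to degrade cartilage and bone. TNF is a main driver of that state, and it is released from the cell surface by the protease ADAM17, whose gene lies within the stretch. In mammals methyl groups sit mostly on cytosines of CpG pairs. Methylation of repeated and gene-poor DNA is usually high, while CpG-rich promoters are mostly free of it. MethylCap-seq captures methylated fragments with a methyl-CpG-binding protein and counts them, so a value here is a number of captured reads scaled to the library, not a percentage of methylated CpGs. In such bulk cultures a change in the share of cells that carry the methylation and a change in each cell cannot be told apart. None of the libraries is of uncaptured DNA, so captured reads were not compared with the amount of DNA present.

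The stretch is poor in characterised genes. In RefSeq's gene order (assembly GRCm38.p6, used for names and order only), 52 of the 55 genes between Hpcal1 and Asap2 and 49 of the 50 between Ywhaq and Taf1b have provisional names of the Gm, LOC or Rik kind, 94.5% and 98.0%. The same share is 50.2% over all 49997 genes of that table. Pseudogenes make up 20 of the 55 and 25 of the 50. A pair of islands of characterised genes break this pattern: Asap2, Itgb1bp1, Cpsf3, Iah1, Adam17 and Ywhaq in the first, and Taf1b, Grhl1, Klf11, Cys1, Rrm2, Mboat2, Kidins220 and Id2 in the second. Of the 383 listed regions, 342 lay outside any annotated gene and its promoter in the authors' annotation.

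Among the provisional genes 3 had a listed region at their start, and their promoters are shown because they bear on how alike copies along the stretch are. Each sequence is RefSeq's GRCm38.p6 window from 250 bases before to 50 bases after the gene's start on chromosome 12. Capitals mark the runs of at least 20 bases that the 5730507C01Rik and 2410018L13Rik promoters share exactly.
5730507C01Rik: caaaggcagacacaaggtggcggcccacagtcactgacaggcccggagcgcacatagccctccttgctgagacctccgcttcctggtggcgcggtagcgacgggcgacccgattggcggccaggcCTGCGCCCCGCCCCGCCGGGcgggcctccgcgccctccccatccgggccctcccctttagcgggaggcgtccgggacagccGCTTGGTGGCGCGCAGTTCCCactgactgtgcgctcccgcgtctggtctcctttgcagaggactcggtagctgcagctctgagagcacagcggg
2410018L13Rik: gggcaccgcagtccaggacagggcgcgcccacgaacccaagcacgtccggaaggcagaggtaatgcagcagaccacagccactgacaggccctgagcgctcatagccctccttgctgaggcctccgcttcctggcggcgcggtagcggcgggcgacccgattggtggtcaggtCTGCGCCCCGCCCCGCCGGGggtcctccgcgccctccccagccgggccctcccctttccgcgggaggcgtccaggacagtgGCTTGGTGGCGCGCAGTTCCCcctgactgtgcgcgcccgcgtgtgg
1700030C10Rik: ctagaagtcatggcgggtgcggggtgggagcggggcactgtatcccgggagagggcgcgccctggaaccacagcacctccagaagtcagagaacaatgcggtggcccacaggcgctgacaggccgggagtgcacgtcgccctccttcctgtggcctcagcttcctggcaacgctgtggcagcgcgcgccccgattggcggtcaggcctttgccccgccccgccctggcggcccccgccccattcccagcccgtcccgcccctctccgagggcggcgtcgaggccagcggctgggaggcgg

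The windows lie at chr12:18514260-18514559 on the plus strand for 5730507C01Rik, at chr12:23010194-23010493 on the minus strand for 2410018L13Rik and at chr12:20815730-20816029 on the minus strand for 1700030C10Rik, in GRCm38.p6. They hold 30, 31 and 29 CpG pairs, more than 88.3%, 89.4% and 87.1% of the 32851 promoter windows in the RefSeq table. Searched on both strands of all 32851 windows, CTGCGCCCCGCCCCGCCGGG was found in 6 (0.018%) and GCTTGGTGGCGCGCAGTTCCC in 4 (0.012%), all on chromosome 12. Globally aligned, the promoters of 5730507C01Rik and 2410018L13Rik were 64.5% identical, and that of the predicted gene Gm5784 was 84.2% identical to 5730507C01Rik. The third promoter holds neither run and was 62.0% identical to 2410018L13Rik and 44.0% to 5730507C01Rik. How reads that match several places were assigned is not given in the sources used here, so values at such copies are uncertain.

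At 8 weeks the stretch was almost all gain: the authors list 227 of its 254 regions as gained in Tg197 and 27 as lost. Gained regions made up 89.4% of the stretch's list, against 57.0% on the rest of chromosome 12 and 42.7% on the other autosomes. The stretch averaged 31.75 regions per Mb, where the median of autosomal 1-Mb bins with any region was 4. From the first to the eighth Mb there were 27, 37, 24, 19, 17, 41, 41 and 21 gained regions and 2, 1, 4, 4, 4, 1, 0 and 11 lost ones. One unbroken series of 58 gained regions ran for 1.47 Mb, from 23622551 to 25087750, between Ywhaq and Taf1b.

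**Figure D1:**
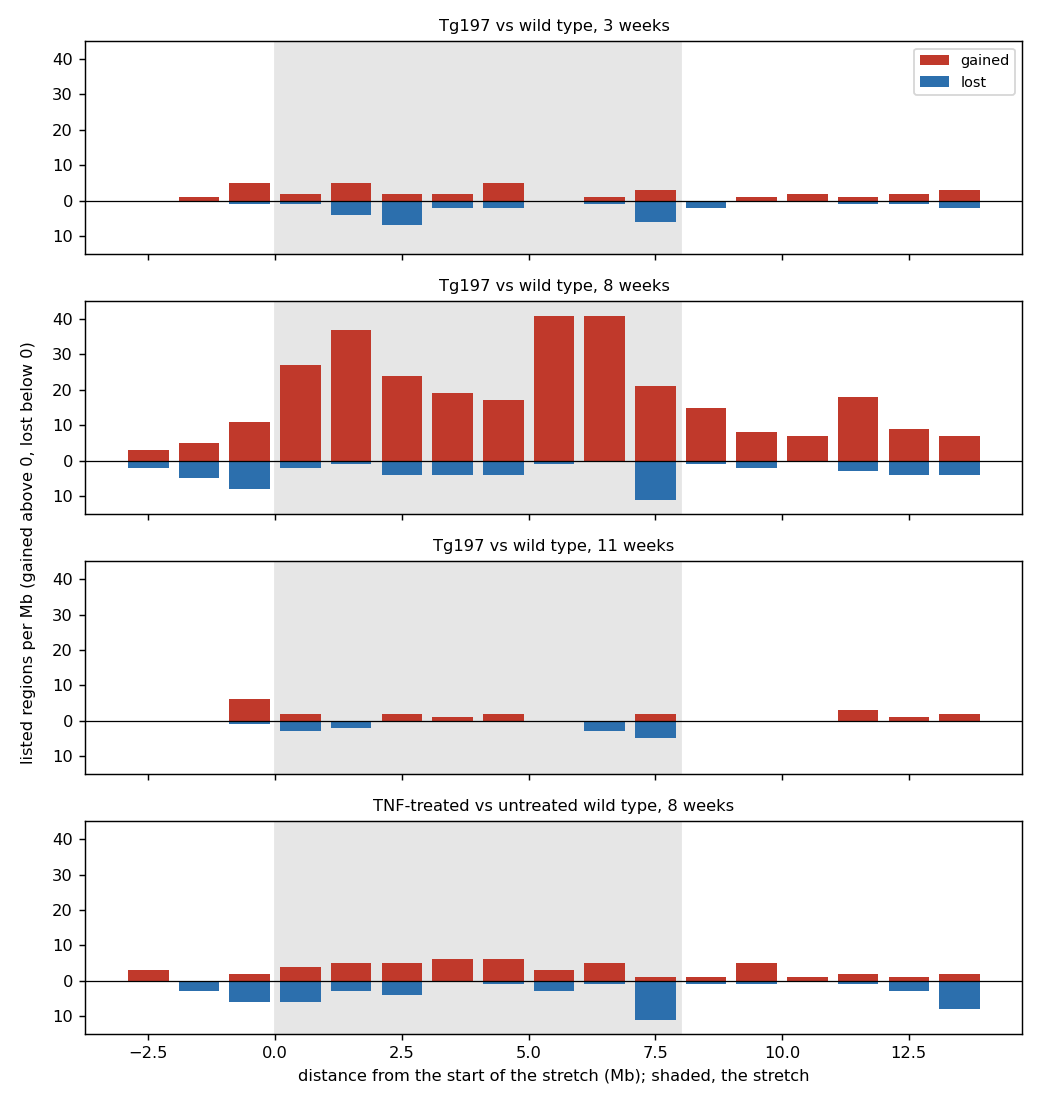
Listed regions per Mb of chromosome 12 (bars, gained above 0 and lost below 0) against distance from the start of the stretch in Mb, in the 4 tables; the stretch is shaded. At 8 weeks gained bars inside the stretch reach 17 to 41 per Mb, and no such rise is seen in the other 3 tables.

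The limits of the stretch are not sharp at 8 weeks. The Mb before it held 11 gained and 8 lost regions, and the Mb after it 15 gained and 1 lost. Mostly gained lists went on past that, with 8 of 10 regions gained in the second Mb beyond the end, 7 of 7 in the third, 18 of 21 in the fourth and 9 of 13 in the fifth. The last listed region before it, 17941551-17942450, averaged 46.0 scaled reads in Tg197 and 22.0 in wild type, and the first after it, 26049251-26049800, averaged 49.1 and 26.2. Just inside, the first member, 18179801-18180850, averaged 105.3 and 41.0, and the last, 25920551-25921250, averaged 15.1 and 28.2. The nearest listed regions outside start at 17877101 and 26719601 in the 3-week table, 17971751 and 29143351 in the 11-week table, and 17733901 (at Hpcal1) and 26044951 in the TNF table.

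Per library, Tg197 libraries 1, 2 and 3 lay above the wild-type mean in 227, 221 and 227 of the 227 gained regions. Such counts are high by construction, since these regions were listed for that gain. On the scale of log2(value + 1), and relative to the wild-type mean, the median gained region stood at 1.34, 0.86 and 1.55 in the 3 Tg197 libraries and at -0.21, -0.10 and 0.31 in the 3 wild-type libraries. Tg197 library 2 was thus the lowest Tg197 library, in 173 of the 227 regions, and wild-type library 3 the highest wild-type library, in 165. All 3 Tg197 values lay above all 3 wild-type values in 199 of the 227, and all 3 lay below in 26 of the 27 lost regions. Over all regions of the 8-week table the groups lay apart upwards in 27.2% and downwards in 42.3%. Counted as for the members, within gained and within lost regions, they lay apart in 87.7% and 96.3% in the stretch and in 60.2% and 82.2% on the other autosomes. Nothing is read from these counts and shares, since the members were chosen from this contrast.

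**Figure D2:**
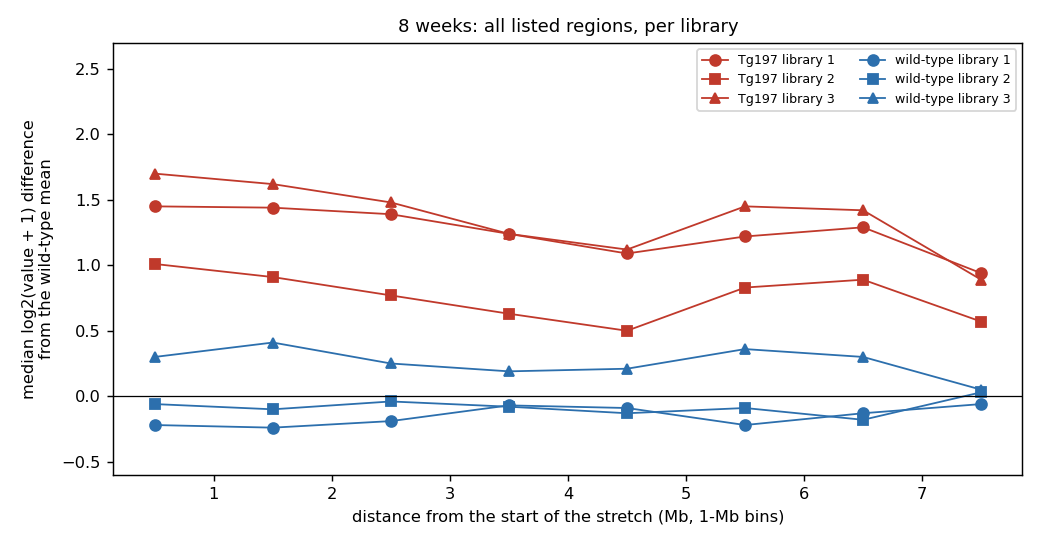
Median difference of log2(value + 1) from the wild-type mean over all listed regions of each 1-Mb bin of the stretch at 8 weeks, 1 line per library. The 3 Tg197 lines lie above the 3 wild-type lines in each of the 8 bins, with Tg197 library 2 lowest of the Tg197 lines and wild-type library 3 highest of the wild-type lines in each.

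The same order of libraries held outside the stretch only in part. Over the gained regions of the other autosomes the Tg197 medians were 1.03, 0.31 and 0.74, so library 1 led there and library 3 led inside the stretch. Library 3 was also the shallowest of each group, with 695108 reads in listed regions for Tg197 and 767619 for wild type, against 971439 to 1143699 in the other 4 libraries. It had the largest share of those reads in the stretch, 4.03% in Tg197 and 2.27% in wild type. The other Tg197 libraries had 2.85% and 3.06%, and the other wild-type libraries 1.56% and 1.67%. The part of depth in the result was not tested.

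Gained members were long. Their median length was 850 bp, against 650 bp on the rest of chromosome 12 and 550 bp on the other autosomes. Their median difference was 1.20, against 0.93 and 0.68 for those sets. Larger medians stood just past the end of the stretch, 1.48, 1.85 and 1.63 over the 8, 7 and 18 gained regions of the second to the fourth Mb beyond it. Split into 4 groups of 56 or 57 regions by wild-type level, the medians were 1.40, 1.07, 1.23 and 1.16 from the lowest to the highest level. All of these regions were chosen as gained, so each median is above 0 by construction. The 254 regions together cover 230300 bp, 2.88% of the stretch.

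By scaled reads per region, the highest members were long intergenic regions. Values were not divided by length, so longer regions tend to rank higher. The longest, 21001251-21004750 (3500 bp), had 699.9, 517.6 and 831.0 scaled reads in Tg197 and 223.2, 255.4 and 367.0 in wild type. At 24326001-24329200 the values were 770.1, 474.7 and 938.4 against 153.1, 208.2 and 367.0. At 19709201-19710800 they were 705.2, 287.2 and 825.1 against 108.2, 92.9 and 250.9. In all 3 the groups did not overlap, Tg197 library 2 was the lowest Tg197 library and wild-type library 3 the highest wild-type one. The highest single value, 1264.5 in Tg197 library 1, stood at 21994751-21996400, where libraries 2 and 3 had 608.2 and 954.6 and wild type 418.6, 432.2 and 526.1.

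The 5 largest gains by the authors' fold change, among regions averaging at least 10 in the higher group, included a weakly captured region at 21975301-21976300. It had 38.4, 30.5 and 60.3 scaled reads in Tg197 and 5.07, 6.74 and 5.53 in wild type, a difference of 2.65 on the log2(value + 1) scale. The region at 18222851-18223950 had 123.3, 73.4 and 160.3 against 11.8, 21.0 and 44.2, a difference of 2.29. The groups did not overlap in either, nor in the other three, whose differences were 2.32, 2.14 and 2.19.

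**Figure D3:**
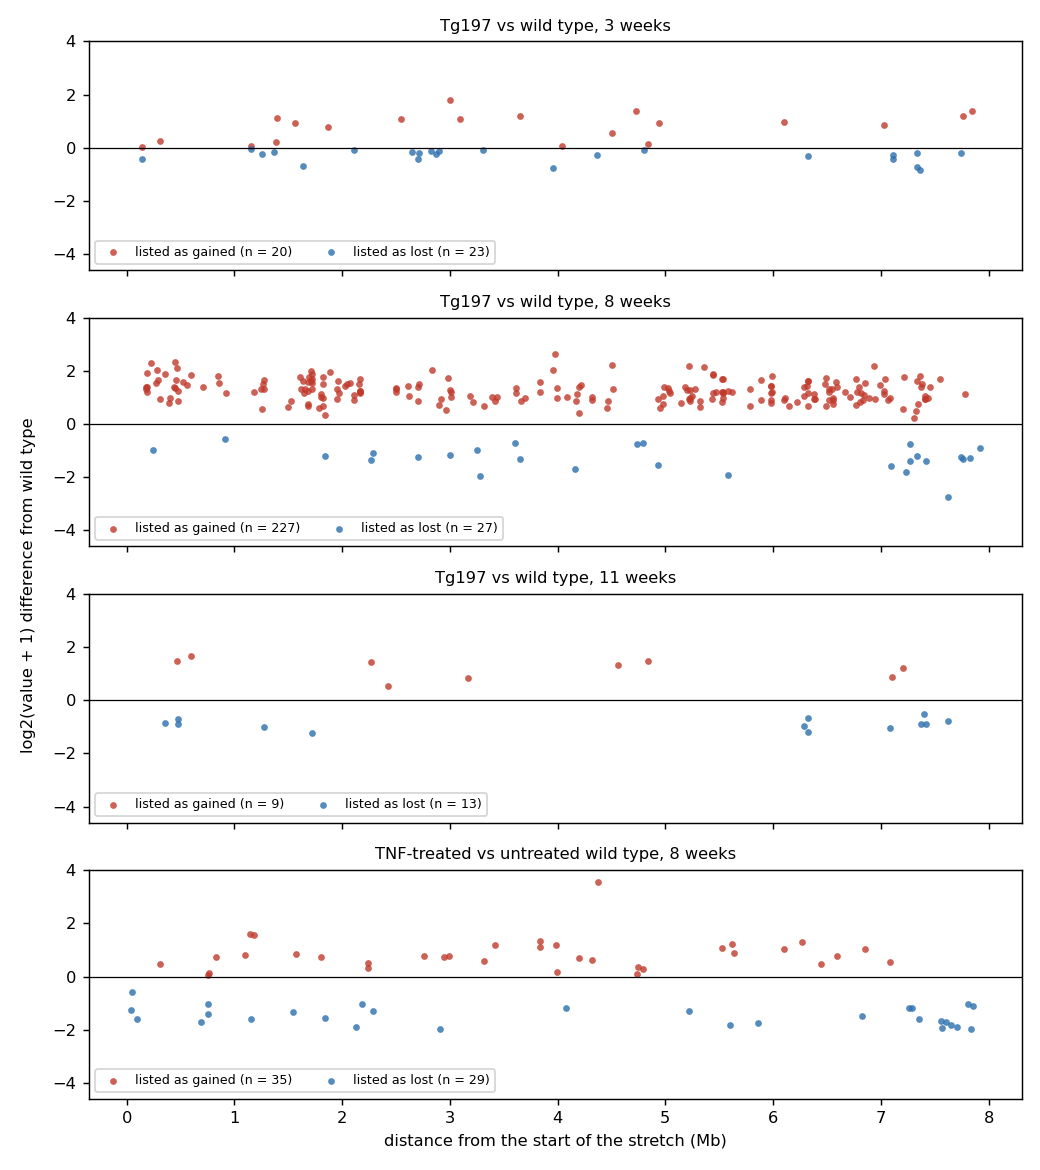
Difference of log2(value + 1) between treated and wild-type group means (Tg197, or TNF-treated in the lowest panel) for each listed region against distance from the start of the stretch in Mb. At 8 weeks 227 gained points fill the stretch above 0, while the other tables hold 43, 22 and 64 points on both sides of 0.

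By position, gained regions were on average denser in the gene-poor intervals than at the gene islands. The gene-poor intervals were not even: the Mb that starts at 22 Mb, between Ywhaq and Taf1b, held 17 gained regions. These intervals were drawn after the values were seen, from the limits the authors' annotation gives for Asap2, Ywhaq and Taf1b. Before Asap2 (up to 21117616) 91 of 98 regions were gained at 8 weeks, 29.2 per Mb, and between Ywhaq and Taf1b (21423296 to 25183445) 115 of 123, 30.6 per Mb. Over the first island, Asap2 to Ywhaq, 5 of 7 were gained, 16.4 per Mb. From Taf1b to the end of the stretch 16 of 26 were gained, 19.6 per Mb, and 10 of the 27 lost regions lay there. Gained and lost together stood at 31.8 per Mb there, against 31.4 and 32.7 in the gene-poor intervals.

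At both provisional gene starts listed at 8 weeks, Tg197 library 2 was the lowest Tg197 library and library 3 the highest. The same positions were held in 173 and 137 of the 227 gained regions of the stretch. The region 18521001-18521950, on the proximal promoter of 5730507C01Rik, had 49.0, 19.4 and 170.6 scaled reads in Tg197 and 24.5, 17.2 and 13.3 in wild type, or 79.7 ± 80.1 against 18.3 ± 5.71 (SD, n = 3). Tg197 library 3 alone carries that mean, and library 2 lay within the wild-type range. The region 22990501-22991300, on the proximal promoter of 2410018L13Rik, had 33.1, 22.8 and 61.8 against 10.2, 11.99 and 18.8, with no overlap. These are the promoters that share the capital runs above.

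In the body of 2410018L13Rik 3 further regions were gained, with 67.6, 73.4 and 64.7 scaled reads in Tg197 against 27.1, 35.2 and 24.3 in wild type at 23036451-23037500. The 3 differences were 1.34, 1.24 and 1.18 on the log2(value + 1) scale, and the groups did not overlap in any of them.

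Among characterised genes in the first island, Asap2, which encodes a GTPase-activating protein for Arf proteins, had 4 regions in its body at 8 weeks. The 2 nearer its start were gained, by 1.04 at 21182451-21183450 and by 0.82 at 21210251-21210750 on the log2(value + 1) scale. The 2 farther in were lost: at 21274601-21275400 Tg197 had 5.30, 9.0 and 2.94 scaled reads and wild type 22.8, 26.2 and 21.0, and at 21250751-21251600 Tg197 had 43.7, 36.7 and 23.5 and wild type 63.4, 70.4 and 68.5. The groups did not overlap in any of the 4, so direction turned within the gene.

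Ywhaq encodes the theta form of the 14-3-3 adaptor proteins. Within 1 kb of its start, at 21422301-21422800, Tg197 had 80.9, 38.8 and 54.4 scaled reads and wild type 29.6, 30.7 and 29.8. Cpsf3 encodes the endonuclease that cuts mRNA before polyadenylation, and its body, at 21314851-21315450, had 141.8, 108.6 and 169.2 against 81.2, 78.7 and 96.2. Both were gained with no overlap. No region was listed in any of the 4 tables at Adam17, at Itgb1bp1, whose product binds integrin tails, or at Iah1, an esterase gene, and a region that was not listed has no value here.

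In the second island, gain and loss alternated over short distances. Taf1b, a subunit of the RNA polymerase I selectivity factor, had 2 gained regions and 1 lost region. At 25214351-25215450 Tg197 had 80.9, 81.0 and 142.7 scaled reads against 22.0, 28.5 and 34.3. At 25234101-25234600 it had 5.30, 11.1 and 2.94 against 30.4, 33.0 and 11.1, where Tg197 library 2 just reached wild-type library 3.

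Grhl1, a transcription factor of surface epithelia, was listed as lost at both its regions. Within 3 kb of its start, at 25266551-25267100, Tg197 had 84.8, 105.2 and 57.4 scaled reads against 135.3, 141.6 and 126.0, and in the body, at 25270651-25271500, 26.5, 47.1 and 10.3 against 61.7, 71.2 and 59.7. Tg197 library 3 was the lowest at both, as in 23 of the 27 lost regions. Klf11, a zinc-finger transcription factor induced by TGF-beta, was gained within 3 kb of its start, at 25333551-25334550, with 98.1, 53.3 and 89.7 against 23.7, 19.5 and 32.1. Inside its body 1 region was lost, by -1.20 at 25339101-25339850, and 1 gained, by 0.76 at 25342551-25343100.

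**Figure D4:**
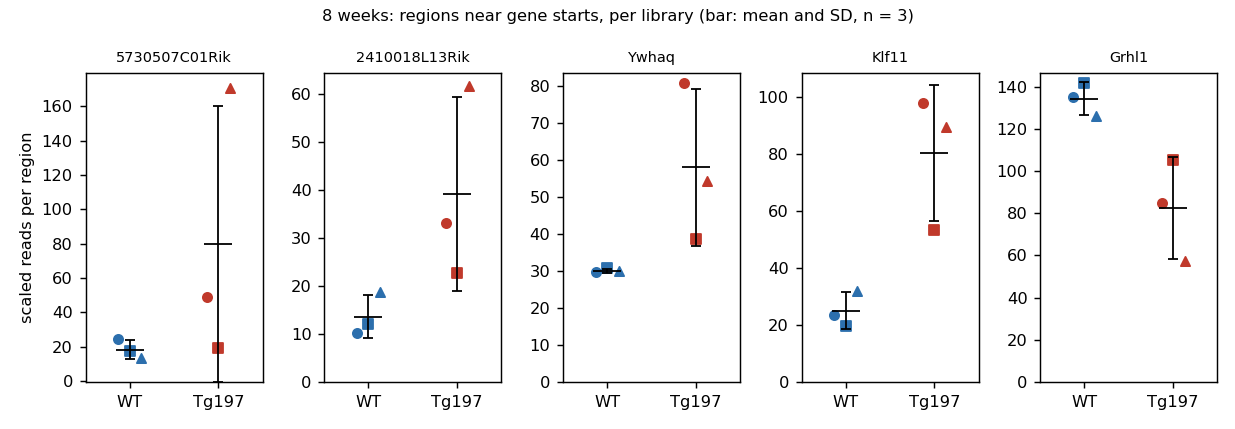
Scaled reads per region at 8 weeks for the 5 regions within 3 kb of a gene start (circle, square and triangle: libraries 1, 2 and 3; bar: mean ± SD, n = 3), each panel on its own scale. Tg197 lies above wild type at 2410018L13Rik, Ywhaq and Klf11, overlaps it at 5730507C01Rik and lies below it at Grhl1.

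Cys1, which encodes the ciliary protein cystin, had 190.9, 103.8 and 208.9 scaled reads in Tg197 and 33.0, 36.0 and 79.6 in wild type at 25361051-25362150. Mboat2, an acyltransferase of membrane phospholipids, was gained at 25545101-25546050 with 49.0, 45.7 and 78.0 against 11.8, 13.5 and 27.6. Farther in, at 25625951-25626750, it was lost, with 7.95, 14.5 and 0 against 44.0, 43.5 and 19.9. In all 3 regions the groups did not overlap. Of the 20 genes of a list drawn up for the stretch and its neighbours, 10 had a member in at least 1 table. At 8 weeks the 17 members at characterised genes divided into 10 gained and 7 lost, against 227 and 27 over the stretch.

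At 3 weeks the stretch showed no such excess. Of its 43 regions the authors list 20 as gained and 23 as lost. The stretch averaged 5.38 regions per Mb, where the median of autosomal 1-Mb bins with any region was 4. In a limma fit of log2(value + 1) over all 13125 regions, 31 of 43 passed at a Benjamini-Hochberg adjusted p under 0.05, 16 gained and 15 lost. Over all regions 85.0% passed, 40.3% as gained and 44.7% as lost, a larger total share than the members' 31 of 43. These shares are high because the authors had already selected the regions for a difference. The median difference was -0.09 in the stretch and -0.12 over all regions. When libraries were scaled to equal medians over autosomal regions outside the stretch, all regions moved to 0.15, the stretch to 0.17, and the split to 23 gained and 1 lost. Over all 13125 regions the same scaling gave 49.1% gained and 8.57% lost, so the whole table turned towards gain. Only listed regions set these medians. They were selected for a difference and were not balanced between gain and loss, so the scaling may remove real differences too.

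The larger changes at 3 weeks that are named here were in weakly captured regions. At the intergenic 20997501-20998100 Tg197 had 17.3, 17.9 and 27.7 scaled reads and wild type 5.63, 7.24 and 3.41. This rise of 1.79 ± 0.36 (SE) on the log2(value + 1) scale passed in limma (adjusted p = 0.00170). In the body of Cys1 Tg197 had 30.2, 23.6 and 19.8 against 48.8, 45.3 and 37.5, a fall by 0.83 (SE 0.23, limma adjusted p = 0.00413). The groups did not overlap at either. Under the scaling to equal medians the Cys1 difference was -0.56 and no longer passed.

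Strongly captured regions differed by little at 3 weeks. In the body of Kidins220, a scaffold protein of neurotrophin signalling, at 25741851-25742650, Tg197 had 315.4, 345.1 and 332.3 scaled reads against 388.7, 399.1 and 363.5, which fell by 0.21 (SE 0.07, limma adjusted p = 0.00836). In the body of Klf11, at 25339651-25340250, the difference was -0.18 and passed (limma adjusted p = 0.0305), but not without Tg197 library 1 (-0.16) or 3 (-0.15), or wild-type library 2 (-0.17) or 3 (-0.16). Under the scaling to equal medians the Kidins220 and Klf11 body differences were 0.05 and 0.08, above 0. The regions at Cpsf3 (-0.09) and within 1 kb of the start of 1700030C10Rik (-0.11) did not pass, with limma adjusted p of 0.193 and 0.154. The authors' own adjusted p was not under 0.05 at this Klf11 body region and at 1700030C10Rik. It was under 0.05 at Cpsf3, at Kidins220 and at the Klf11 start region given next. Among the regions named here the 2 tests thus differ at both Klf11 regions and at Cpsf3. Over the 43 members, 40 had an authors' adjusted p under 0.05 and 31 passed in limma. At 18139901-18140400 the authors' adjusted p was 1.83e-08, while the difference was 0.025 (limma adjusted p = 0.708). The region within 3 kb of the start of Klf11, at 25334051-25334550, had 35.6, 24.5 and 26.7 against 107.1, 29.0 and 35.2 and did not pass (adjusted p = 0.0642), with wild-type library 1 far above the other 5; without Tg197 library 1 (-0.88), or wild-type library 2 (-1.08) or 3 (-0.94), it passed as lost.

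At 11 weeks only 22 regions of the stretch were listed, 9 as gained and 13 as lost. The stretch averaged 2.75 regions per Mb, where the median of autosomal 1-Mb bins with any region was 3. Empty bins count in that average but not in that median. In limma over all 7309 regions 19 passed, 8 gained and 11 lost, where 77.9% of all regions passed, 49.7% as gained and 28.2% as lost. The median difference was -0.68, against 0.76 over all regions, but with limits of 17 and 27 Mb it was 0.55, above 0. With libraries scaled to equal medians outside the stretch the medians became -1.09 in the stretch and 0.35 over all regions, and the split 4 gained and 13 lost. Over all 7309 regions the same scaling gave 18.9% gained and 40.8% lost, so the whole table turned towards loss. The calls rest on few libraries: without Tg197 library 1, Tg197 library 3 or wild-type library 2 none of the 22 passed, and of all 7309 regions 10, 0 and 0 did, while 20, 17 and 19 of the 22 had an unadjusted limma p under 0.05.

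The lost regions at 11 weeks were intergenic except at Rrm2 and Mboat2. At 18473651-18474150 Tg197 had 199.5, 166.1 and 122.4 scaled reads and wild type 492.2, 253.2 and 212.4 (a fall by 0.90, SE 0.34, limma adjusted p = 0.0350, which did not pass without Tg197 library 2). At 24323351-24323850 it had 11.2, 12.6 and 10.4 against 29.9, 24.2 and 28.3 (a fall by 1.20, SE 0.30, limma adjusted p = 0.0219). Wild-type library 1 was the highest wild-type library at 11 of the 13 lost regions, as at 70.6% of lost regions on the other autosomes. Without it the stretch's median was -0.48 and 18 regions passed.

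In genes at 11 weeks, Taf1b rose by 1.20 (SE 0.36, limma adjusted p = 0.0219) at 25209651-25210450, with 27.1, 18.3 and 33.6 scaled reads against 9.52, 13.96 and 8.77. The body of Asap2, at 21166001-21166500, had 50.3, 38.9 and 46.6 against 32.6, 19.6 and 24.4 and passed as gained (limma adjusted p = 0.0242). Mboat2 fell by 0.80 (SE 0.24, limma adjusted p = 0.0219), with 22.3, 24.1 and 24.1 against 43.5, 44.7 and 37.0. Rrm2, the small subunit of ribonucleotide reductase, had 156.4, 148.9 and 129.3 against 293.7, 183.4 and 158.8, a difference of -0.50 that did not pass (adjusted p = 0.102). Under the scaling to equal medians Taf1b (0.79) and Asap2 (0.41) did not pass and Rrm2 (-0.91) passed as lost. Rrm2 also passed without wild-type library 3 (-0.68).

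Few places were listed at more than 1 age. At least 1 bp was shared by 10 pairs of regions of the 3- and 8-week tables, 23.3% of the 3-week and 3.9% of the 8-week members, and 6 of these pairs were listed as lost at 3 weeks and gained at 8. The 8- and 11-week tables shared 10 pairs, 45.5% of the 11-week and 3.9% of the 8-week members. In 9 of these the region was gained at 8 weeks and lost at 11, and in 1 lost at 8 and gained at 11, and in all 10 the groups did not overlap at either age. Over all regions of a table the groups lay apart in 86.1% at 3 weeks, 69.6% at 8 weeks and 83.7% at 11 weeks, so this count says little by itself. The stretch was picked for its mostly gained 8-week list, so any region lost at another age was likely to meet the opposite direction. How often directions differ outside the stretch was not examined. No region was shared by the 3- and 11-week tables. The tables were scaled separately, so a level is not compared between ages.

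At 18351801-18353000 Tg197 had 452.0, 198.6 and 444.2 scaled reads at 8 weeks and wild type 66.8, 64.4 and 187.9. At the overlapping 18351851-18352400 at 11 weeks Tg197 had 88.6, 73.3 and 62.1 and wild type 242.0, 102.4 and 95.5 (difference -0.84, limma adjusted p = 0.0502). The opposite case was 20270551-20271500, with 72.9, 84.4 and 17.7 against 118.4, 137.1 and 121.6 at 8 weeks, and 13.6, 19.5 and 17.2 against 5.44, 7.45 and 3.90 at the overlapping 20270451-20270950 at 11 weeks. Tg197 stood above wild type at one age and below it at the other in both places.

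**Figure D5:**
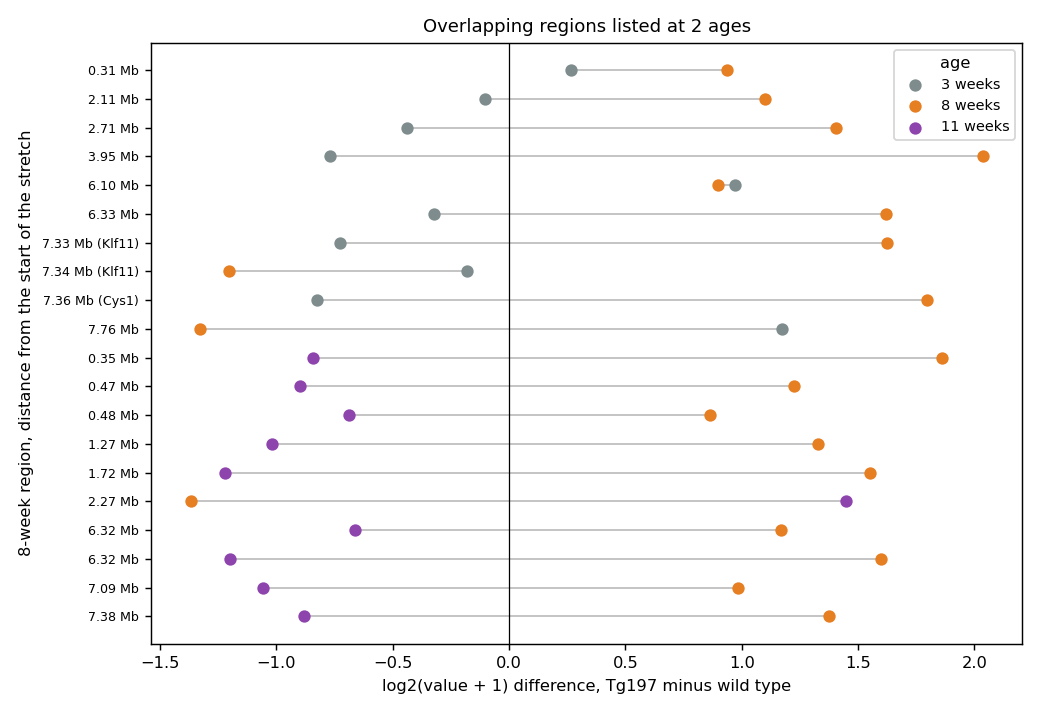
Difference of log2(value + 1), Tg197 minus wild type, at the 20 pairs of overlapping regions listed at 2 ages, ordered by pair of ages and position (label: distance of the 8-week region from the start of the stretch). In 17 pairs the 2 points lie on opposite sides of 0, and the stretch was picked for its mostly gained 8-week regions.

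TNF added to wild-type cells gave 64 listed regions in the stretch, 35 gained and 29 lost. The groups lay apart upwards in 32 and downwards in 29, where over all regions the groups lay apart in 95.8%, upwards in 32.3% and downwards in 63.5%. With libraries scaled to equal medians outside the stretch, these became 35 and 9. The stretch's median difference was 0.17, against -1.08 over all regions of that table, and with that scaling 1.11 and -0.14. From Taf1b to the end of the stretch all 11 listed regions were lost, while between Ywhaq and Taf1b 19 of 24 were gained.

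At the start of Ywhaq, 21422251-21422800, the TNF-treated libraries had 53.8 (libraries 1 and 2) and 102.9 scaled reads against 30.0, 32.8 and 33.2. At 22374651-22375700, the largest gain, they had 35.8 and 93.0 against 2.57, 3.05 and 7.37. The body of Cpsf3 had 164.3 and 193.4 against 113.0, 116.5 and 130.2. In all 3 places the TNF-treated values lay above the untreated ones.

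From Taf1b on, all 11 regions listed with TNF were lost, while 13 of the stretch's 29 lost regions lay before Asap2. Lost regions made up 45.3% of the TNF list in the stretch and 68.2% on the other autosomes. In Mboat2, at 25557351-25558400, the TNF-treated libraries had 15.9 and 12.4 scaled reads against 71.9, 44.9 and 33.2, and its other two regions were lost as well. In Kidins220, at 25710801-25711300, they had 2.99 and 2.48 against 14.6, 15.2 and 9.83. Both regions in Grhl1 and the 1 in Cys1 were also listed as lost, with differences of -1.19, -1.20 and -1.61, and the groups did not overlap in any of the regions named here.

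The Tg197 and TNF tables at 8 weeks share their untreated wild-type libraries, so their values are only set side by side. At the start of Ywhaq the difference was 0.86 with Tg197 and 1.20 with TNF, and at Cpsf3 0.69 and 0.57. At 24099651-24100550, a window listed in both tables with the same limits, it was 0.90 and 1.02. Regions overlapped in 17 places, 6.7% of the 8-week and 26.6% of the TNF members. Directions differed at 22792701-22793550, with -0.72 for Tg197 and 0.28 for TNF, and at 23219151-23220150, with 0.93 and -1.30.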

How the data were processed

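Methylated DNA of synovial fibroblasts, sonicated to an average of 250 bp, was enriched with a methyl-CpG-binding protein kit and sequenced as 100 bp paired reads, per the labels' protocols. The submitters' processing notes name BWA, TopHat, TopHat2, Cufflinks, Cuffdiff and the build mm9, without roles; the program that called the regions is not given in the sources used here. Each deposited table lists regions that the authors found different between 2 groups. Their adjusted p for the region was not under 0.05 for 3 of 43 members at 3 weeks and 2 of 64 with TNF. All members at 8 and 11 weeks were under 0.05. The deposited signal is the group mean of normalized reads, and the log2 fold change, the p-value and the adjusted p-value are the authors' own, per the file headers. The 3 library values of a group stand in 1 cell, as reads divided by a size factor, with no replicate number. The tables were normalized separately and tests were made within a table.

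Members and gene lists were chosen with earlier results of these data known. The differences printed are of log2(value + 1), treated minus wild type. For 3 and 11 weeks limma 3.58.1 (R 4.3.3) with a mean trend was fitted to all regions of the table, with Benjamini-Hochberg adjustment over it; it was tested on simulated data. The 8-week and TNF values were described, with a region called apart where all values of one group lay above all of the other. Recovered reads in listed regions numbered 385155 to 2875561 per library; whole numbers (within 0.1) came from at least 99.53% of values. All 383 members averaged at least 10 in the higher group. The regions named are those within 3 kb of a gene start, the 5 largest gains and losses, the 5 highest means, those at listed genes, those overlapping between tables, and the ends. Alternatives changed the pseudocount, filter, scaling, limits, libraries and test. Promoters were aligned with Biopython 1.88.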

Additional observations from a re-analysis of the deposited data

Results flagged for a closer look

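At 14 places in the stretch, overlapping regions were listed in opposite directions at 2 ages with no overlap of Tg197 and wild-type libraries at either age; the difference between ages was not tested. All values are differences of log2(value + 1), Tg197 minus wild type. The places were found among regions already selected for a difference at each age. The 2 regions of a place have different limits and need share only 1 bp, so their values are not those of 1 window at 2 ages.

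Between 3 and 8 weeks the difference went from -0.10 to 1.099 at 20111651, from -0.77 to 2.04 at 21955151, and from -0.83 to 1.79 in Cys1 at 25361051. At 25763501 it went the other way, from 1.17 to -1.33. At 21955151 the 3-week region had 600 bp and the overlapping 8-week region 2050 bp. The 3-week difference of -0.10 at 20111651 did not pass in limma (adjusted p = 0.13). Under the scaling of libraries to equal medians outside the stretch, the 3-week difference at 20111651 was 0.16, so that place then had the same sign at both ages.

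Between 8 and 11 weeks it went from 1.86 to -0.84 at 18351801, from 1.22 to -0.90 at 18473001, from 0.86 to -0.69 at 18478751, from 1.33 to -1.02 at 19269451, and from 1.55 to -1.22 at 19717451. It went from 1.17 to -0.66 at 24321301, from 1.60 to -1.20 at 24323501, from 0.98 to -1.06 at 25086901, and from 1.37 to -0.88 at 25376801. At 20270551 it went from -1.37 to 1.45. The 11-week difference of -0.84 at the region overlapping 18351801 did not pass in limma (adjusted p = 0.0502). Wild-type library 1 at 11 weeks was the highest wild-type library at 11 of the 13 lost regions of that age. Without it the stretch's 11-week median was -0.48, 18 of the 22 regions passed in limma, and the difference at 25376751 was -0.60. Without Tg197 library 1, Tg197 library 3 or wild-type library 2, none of the 11-week regions of the stretch passed.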

How the results depend on the processing

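No paired analysis was possible because the values of the 3 libraries of a group carry no replicate number. Scaling libraries to equal medians over autosomal regions outside the stretch moved the stretch's median difference from -0.09 to 0.17 at 3 weeks, 1.17 to 1.54 at 8 weeks, -0.68 to -1.09 at 11 weeks and 0.17 to 1.11 with TNF. Under it the 3-week differences at 19253951 (0.03), 20111651 (0.16), 20821051 (0.15), 21304651 (0.17), 25339651 (0.08) and 25741851 (0.05) turned above 0. The medians were taken over listed regions only, which were selected for a difference, so this scaling may remove a real imbalance. Which scaling is nearer the truth was not tested. With limits of 17 and 27 Mb the median was -0.03 at 3 weeks, 0.55 at 11 weeks (reversed, with more regions counted) and 0.08 with TNF. Leaving out each library in turn, 26 to 33 regions passed at 3 weeks (median -0.07 to -0.04) and 0 to 21 at 11 weeks (-0.78 to -0.48). The medians ran from 0.99 to 1.33 at 8 weeks and from 0.12 to 0.22 with TNF. A count of groups apart cannot fall when a library is left out, so its ranges, 199 to 223 and 32 to 35, say nothing of stability. At 24327551 the 3-week difference ran from -0.61 to 0.00 with each library left out, 0.00 without wild-type library 1. Pseudocounts of 0.1 and 5, a mean of at least 10, limma voom on recovered reads and, for TNF, counting identical libraries separately kept these counts within 1.5 times and the medians' direction. The cause of these changes was not tested. Depth limits weakly captured regions most, and reads outside listed regions were not analysed here.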
